A study of Mus musculus with 5 samples.

Results

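Gene expression in embryonic stem cell (ESC)-like cells that repopulated from a teratoma after homologous injection of ESCs alone was compared with that in the parental ESCs from which the injected cells came. The comparison used 2 of the 5 arrays of the study, 1 for each cell population, and 19938 genes, taken from 21789 probe sets that name exactly 1 gene symbol of 35556 probe sets in all. For a gene with several probe sets, the one with the highest mean over the 5 arrays was used. Parental ESCs were a B6CBAF1 mouse line kept in culture. Homologous ESC-like cells were obtained by injecting the same B6CBAF1 ESCs under the skin of B6CBAF1 mice and culturing the teratoma that formed until ESC-like colonies grew out. The study injected 4 homologous recipients, and which teratoma or teratomas gave the RNA on the array is not stated. Both populations were grown on a layer of mitotically inactivated ICR fetal fibroblasts with leukemia inhibitory factor (LIF). The labels give the same LIF concentration for all 5 samples, whereas the methods give a higher one for cells from teratomas than for the parental line, and the part of LIF in the results was not tested. The other 3 arrays served as context: ESC-like cells after heterologous injection of B6CBAF1 ESCs alone into B6D2F1 mice, and a pair of populations (batch 1 and batch 2) that grew out after B6CBAF1 ESCs had been mixed with B6D2F1 fetal fibroblasts and co-injected into B6D2F1 mice. Every difference from parental ESCs rests on the same parental array, so a parental value that stands apart appears in each of them. No group carried an engineered allele, and the labels do not give the sex of the line or of the recipients.

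Mouse ESCs hold a pluripotent state that is built on a small core of transcription factors, among them Oct-4 (Pou5f1), Sox2 and Nanog. A second layer of factors, such as Tbx3, Prdm14, Klf4, Esrrb and Tfcp2l1, marks the naive state of the inner cell mass, whereas Dnmt3a, Dnmt3b, Zic2 and Sall2 rise as cells move toward the primed state of the epiblast. ESCs in serum culture also transcribe, at low levels, genes of the germ line and of the early cleavage embryo, most of which are silenced in somatic cells by DNA methylation and by repressor complexes at their promoters.

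Each array carries short probes spread along a gene, and expression values are given on the log2 scale, on which a difference of 1 is 2-fold. Because there was 1 array on each side, the differences have no replicate check and no p-value, and the expression level of one gene is not compared with that of another. The array medians were 7.48 in both populations. Of the 19938 genes, 609 (3.05%) differed by more than 2-fold, of which 290 (1.45%) were higher and 319 (1.6%) were lower in homologous ESC-like cells. Among 11600 genes whose mean over the 5 arrays exceeded 7.49, the median of all values, 483 (4.16%) differed, of which 255 (2.2%) were higher and 228 (1.97%) were lower. More than 4-fold differences were found for 18 higher and 44 lower genes, and more than 8-fold differences for 3 higher and 9 lower genes. The co-injection arrays, 2 populations of the same condition, differed by more than 2-fold at 1 gene (0.00502%), the microRNA gene Mir380. The median absolute difference was 0.13 between homologous and parental cells and 0.067 between the co-injection arrays, and the 99th percentiles were 1.44 and 0.36. Of the 609 genes, 3 had a gap between the co-injection arrays that exceeded 0.5 times their own difference. For these genes such a gap has to exceed 0.5, above the 99th percentile of 0.36, so a low count was largely given in advance. The co-injection arrays do not measure the spread between parental and homologous populations.

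**Figure D1:**
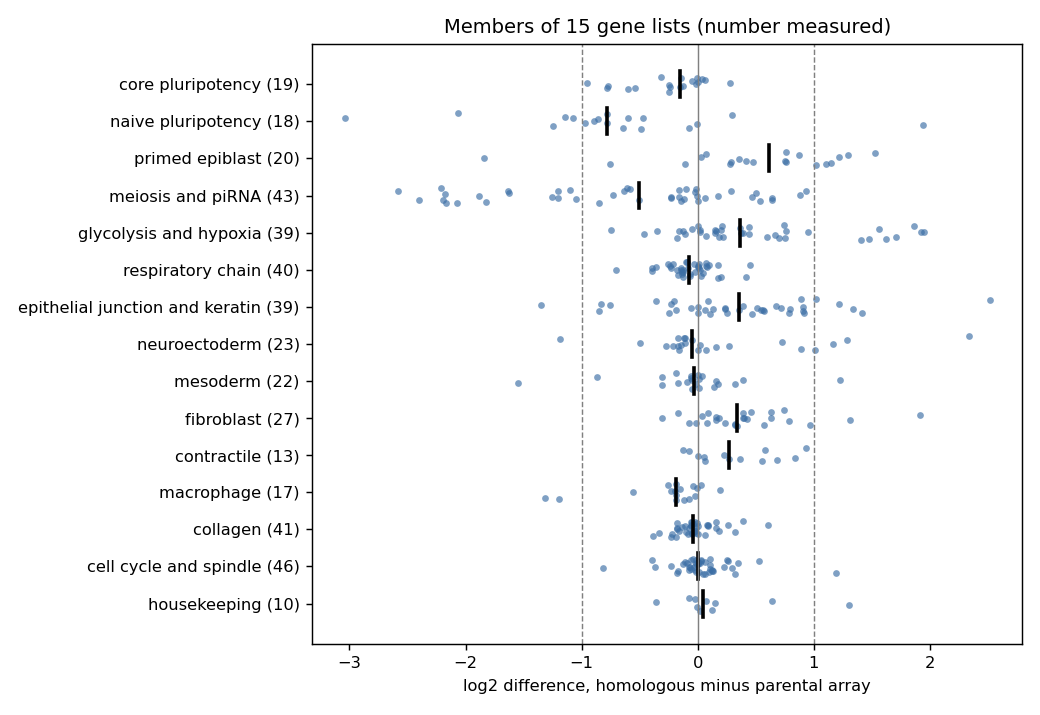
Difference between homologous ESC-like cells and parental ESCs (log2, horizontal axis) for the measured genes of each list, 1 array a side. Each dot is a gene, the black bar is the list's median and the dashed lines mark 2-fold. The core pluripotency genes lie within the dashed lines, the naive and meiosis lists reach below −2, and the primed list and the glycolysis and hypoxia list have medians of 0.62 and 0.36.

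The ESC identity of both populations was read from 19 core pluripotency genes. None of them differed by more than 2-fold. Over all genes the share was 3.05%, so none among 19 is near that share and does not set these genes apart. All 19 were above the array median in both populations, and 15 were below 0 while 4 were above it. Their median difference was −0.15, against −0.01 over all genes. Pou5f1 was 12.60 in parental ESCs and 12.29 in homologous ESC-like cells, Sox2 was 12.04 and 12.10, and the surface co-receptor Tdgf1 (Cripto) was 12.63 and 12.67. Each of these 3 genes was therefore at a similar level in both populations. The lowest members were the X-linked Eras, a constitutively active Ras of ESCs (9.92 and 8.96), Zfp42 (Rex-1; 10.16 and 9.38), Fgf4, the ligand that drives ESCs toward commitment (12.18 and 11.41), and Nanog (12.94 and 12.34). Among 20 primitive streak genes none passed 2-fold, which is also near the share over all genes, and their median was −0.08.

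Markers of other cells were read in the same way, because both cultures contained a fibroblast layer. Of 27 fibroblast genes, 23 were above 0, with a median of 0.34, and the log2 of their summed level was 14.1 in parental ESCs and 14.5 in homologous cells. The matrix metalloprotease Mmp2 (8.43 and 10.35) and the PDGF receptor Pdgfrb (7.56 and 8.87) passed 2-fold, whereas Col1a1 was 8.88 and 9.27, Col3a1 7.58 and 7.76, and Dcn 7.39 and 7.31. Of the 27 genes, 16 were above the array median on both arrays and 7 were at or below it on both. No member of the contractile list of 13 genes passed 2-fold (median 0.27, summed level 13.1 and 13.4). The 17 macrophage genes had a median of −0.18, and 2 of them were lower by more than 2-fold, the lysosomal glycoprotein Cd68 (9.73 and 8.42) and the class II invariant chain Cd74 (8.18 and 6.99), while Adgre1, Csf1r and Ptprc stayed at or below 6.55 on both arrays. For these marker counts, the shares over all genes were 1.45% higher and 1.6% lower by more than 2-fold. Endothelial and blood genes showed no difference over 2-fold among 17 measured. Whether fibroblasts of the feeder layer or the host contribute to a difference was not tested.

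Naive pluripotency genes were lower in the homologous ESC-like cells. Of 18 measured members, 16 were below 0, 5 were lower by more than 2-fold and 1 was higher, with a median of −0.78, against 1.6% lower and 1.45% higher over all genes. The decrease was not particular to homologous cells. Against the same parental array, the list median was −1.21 on the heterologous array and −0.68 and −0.50 on the co-injection arrays. The T-box factor Tbx3, which sustains self-renewal, was 11.58 in parental ESCs and 8.54 in homologous cells, a difference of −3.04. On the heterologous array it was 9.25 and on the co-injection arrays 9.93 and 9.81, so the homologous population was the lowest of the 5. Prdm14, a repressor of FGF signaling and of DNA methyltransferase genes, was 10.24 and 8.17 (−2.07). The nuclear receptor Nr5a2 was 10.58 and 9.33 (−1.24), the AKT co-activator Tcl1 was 11.13 and 9.99 (−1.14), and Klf4 was 11.28 and 10.21 (−1.08). Nr5a2 was 10.28 on both co-injection arrays, close to the parental value. Prdm14, Tcl1 and Klf4 were lowest on the heterologous array, at 7.71, 9.45 and 9.86. Differences short of 2-fold were found for Tfcp2l1 (−0.97), Nr0b1 (−0.89), Tet2 (−0.86), Esrrb (−0.65), Klf2 (−0.49) and Klf5 (−0.48). The members above 0 were Fbxo15 (10.34 and 10.63, 0.30) and Dppa3. Dppa3 (Stella) is a maternal factor that protects methylated DNA from demethylation, and it was 7.02 in parental ESCs and 8.97 in homologous cells (1.94). Its level was 6.82 on the heterologous array and 8.85 and 8.71 on the co-injection arrays.

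The primed epiblast genes showed the opposite balance. Of 20 measured, 17 were above 0, 6 were higher by more than 2-fold and 1 was lower, with a median of 0.62, against 1.45% higher and 1.6% lower over all genes. The list median was also above 0 on the heterologous array (0.32) and on the co-injection arrays (0.41 and 0.37), all against the same parental array. Sfrp2, a secreted Wnt antagonist, was 9.18 in parental ESCs and 10.71 in homologous cells, and the zinc-finger factor Sall2 was 7.05 and 8.34. The tight-junction protein Cldn6 was 10.77 and 11.98, the carbonic anhydrase Car14 was 7.25 and 8.40, the de novo DNA methyltransferase Dnmt3a was 9.26 and 10.36, and Zic2 was 10.74 and 11.76. Dnmt3a was 10.69 on the heterologous array and 10.68 and 10.49 on the co-injection arrays, above the homologous value, whereas Car14 was highest on the homologous array. Dnmt3b, the other de novo enzyme, reached 0.76 (10.50 and 11.26). Not all of the list moved in this direction. The classical markers Fgf5 (7.82 and 8.10), Otx2 (9.25 and 9.73) and Pou3f1 (9.40 and 9.47) stayed within 2-fold, and the early epiblast factor Foxd3 was lower, 10.26 against 8.42 (−1.84).

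Among 19 genes of the LIF and STAT3 pathway, the receptor chains Lifr (−0.28) and Il6st (−0.09), the kinase Jak1 (0.04), Stat3 (0.00) and the feedback inhibitor Socs3 (−0.02) were similar in both populations, and the list median was −0.04. The connexin Gjb5 (10.01 and 8.66) and Klf4 were the members lower by more than 2-fold, and the early response gene Ier3 was higher (7.86 and 8.94). In the DNA methylation machinery, with 19 genes and a median of −0.17, only Dnmt3a passed 2-fold. The maintenance enzyme Dnmt1 was 11.50 and 11.49 and its partner Uhrf1 differed by −0.28. The dioxygenase Tet1 differed by −0.04, whereas Tet2 was 11.72 and 10.86, and Zfp57, which guards imprints, was 12.92 and 12.27. Of 22 Polycomb genes only Epop, a cofactor of Polycomb repressive complexes in ESCs, was lower by more than 2-fold (−1.20, with 10.80 in homologous cells). Over all genes, 1.45% were higher and 1.6% lower by more than 2-fold.

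Some genes expressed in the cleavage embryo were lower. Of 14 measured genes of the 2-cell stage list, 4 were lower by more than 2-fold, 10 stayed within 2-fold and none was higher, against 1.6% lower over all genes. The median was −0.49 over the list and −0.18 over the members above the median of all values. That filter can drop genes that were above this median in parental ESCs alone, such as Pramel7. The PRAME-like genes Pramel7 (8.11 and 5.62, −2.49) and Pramel6 (5.70 in homologous cells, −2.31) differed most. Both were between 5.60 and 5.87 on the other 3 arrays of repopulated cells, so the parental level was the highest of the 5. Tdpoz3 (−1.96) and Zfp352 (−1.17) followed, and on the heterologous array these 2 genes were nearer to parental ESCs, at 6.75 and 7.88 against parental levels of 7.26 and 7.86.

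Of the gene lists, that of meiosis and piRNA genes held the most genes over 2-fold, a count that also depends on list size. The shorter X-linked germ-line list, described below, had 8 lower and 1 higher of 21, and both lists include Tex11 and Taf7l. Of 43 measured genes of meiosis and of the piRNA pathway, 16 were lower by more than 2-fold and none was higher, against 1.6% lower over all genes. The median was −0.51 over the list, −0.23 without its X-linked members, and −0.37 over its 40 members off the X, the Y and chromosome 8, of which 14 were lower. In the chromosome axis and synapsis machinery, the transverse filament gene Sycp1 was 8.54 in parental ESCs and 5.96 in homologous cells (−2.58), and the central element gene Syce1 was 9.66 and 7.47 (−2.19). Hormad2 (8.19 and 6.02) and Hormad1 (10.05 and 8.79), which bind unsynapsed axes, and the meiotic cohesin subunits Smc1b (8.88 and 6.80) and Stag3 (−1.10) were lower as well. The heterologous and co-injection arrays also lay below the parental array for each of these 6 genes.

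In the piRNA pathway, Mael, needed for transposon silencing in spermatocytes, was 11.41 in parental ESCs and 9.01 in homologous cells (−2.40). The Piwi protein Piwil2 was 9.39 and 7.77 (−1.63), Rnf17 was 9.02 and 7.81 (−1.20) and Stk31 was 7.33 and 5.44 (−1.88). Regulators of germ cell fate were among the lower genes too. The RNA-binding protein Dazl was 9.41 and 7.23 (−2.18), the transcription factor Sohlh2 was 10.33 and 8.12 (−2.21), and the meiotic gatekeeper Stra8 was 7.72 and 6.51 (−1.20). For Stra8 the co-injection arrays, at 7.47 and 7.46, lay near the parental value and the homologous array was the lowest of the 5. The decrease did not extend to the whole list. Tdrd5 (7.62 and 8.56), Tdrd12 (9.68 and 10.57), Rec8 (7.73 and 8.37) and Sycp3 (6.50 and 7.14) had differences of 0.93, 0.88, 0.64 and 0.64 in the other direction, and Syce2, on chromosome 8, was 11.26 and 11.73.

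**Figure D2:**
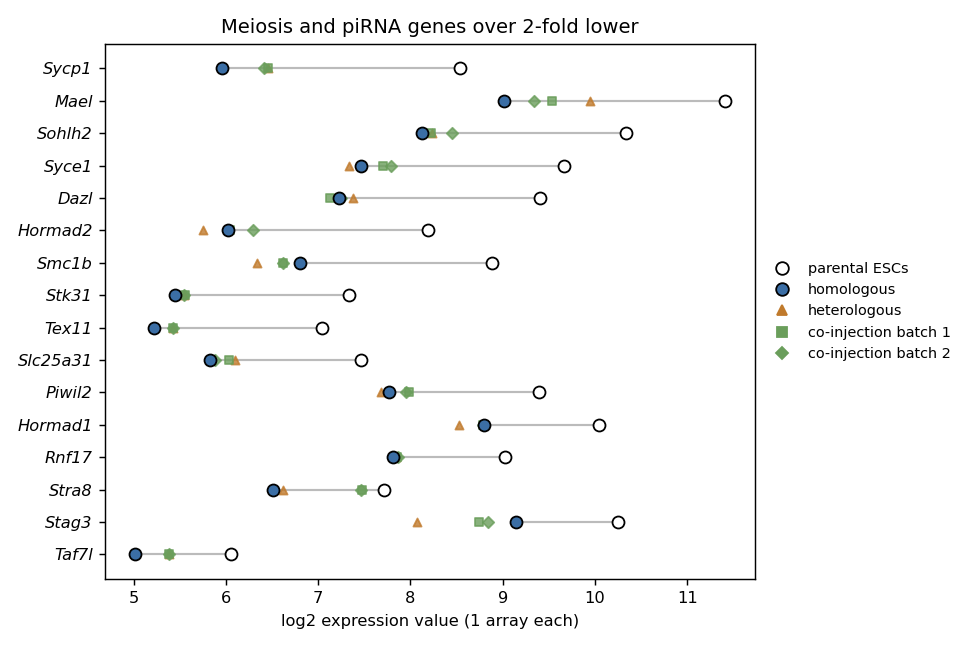
Expression values (log2, horizontal axis) of germ-line genes on each of the 5 arrays. Open circles are parental ESCs, blue circles homologous ESC-like cells, triangles heterologous cells, and green squares and diamonds co-injection batches 1 and 2. Parental ESCs lie to the right for Sycp1, Mael, Dazl and Sohlh2, and the 4 arrays of repopulated cells lie to the left.

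Promoter sequences are shown because many germ-line genes carry the E-box CACGTG near their start, a palindrome that is known to be bound by the Myc, Max and Mga family. The windows run from 250 bases before to 50 bases after the gene start and come from RefSeq (GRCm38.p6). CACGTG was searched on both strands, and a gene with several windows was counted when any of them held it. It was present in 16 of 38 genes of the meiosis and piRNA list (42.1%). Of all 15614 measured genes with a window, 1483 held it (9.5%). Within the list it was found in 7 of 13 genes lower by more than 2-fold (53.8%) and in 9 of 25 genes within 2-fold (36%), so the letters are shared by members that differed and members that did not. A match describes the window and does not show binding. Capitals mark CACGTG in the 4 windows below, each written 5′ to 3′ on the strand of its gene: Mael at chr1:166238695-166238994 (minus), Hormad1 at chr3:95559427-95559726 (plus), Sycp1 at chr3:102936051-102936350 (minus) and Slc25a31, a germ-cell ADP/ATP carrier (7.47 and 5.83), at chr3:40708621-40708920 (plus).
Mael: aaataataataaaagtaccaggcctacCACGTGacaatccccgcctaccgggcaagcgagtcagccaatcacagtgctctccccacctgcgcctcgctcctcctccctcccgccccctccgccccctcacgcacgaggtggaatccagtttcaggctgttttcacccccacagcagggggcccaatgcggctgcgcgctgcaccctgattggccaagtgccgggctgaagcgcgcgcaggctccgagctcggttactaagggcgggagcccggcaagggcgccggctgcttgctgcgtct
Hormad1: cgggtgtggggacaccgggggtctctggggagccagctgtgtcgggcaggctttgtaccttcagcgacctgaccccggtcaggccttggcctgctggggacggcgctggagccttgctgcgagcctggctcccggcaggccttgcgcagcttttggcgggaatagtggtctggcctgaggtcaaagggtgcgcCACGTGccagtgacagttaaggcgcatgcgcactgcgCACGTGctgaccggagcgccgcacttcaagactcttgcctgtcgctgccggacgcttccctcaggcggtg
Sycp1: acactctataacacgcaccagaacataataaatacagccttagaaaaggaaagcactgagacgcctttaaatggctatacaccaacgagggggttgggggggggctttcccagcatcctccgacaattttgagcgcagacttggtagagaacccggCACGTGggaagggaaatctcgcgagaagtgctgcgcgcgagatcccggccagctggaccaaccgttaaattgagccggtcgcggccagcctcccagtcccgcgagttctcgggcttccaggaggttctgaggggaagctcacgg
Slc25a31: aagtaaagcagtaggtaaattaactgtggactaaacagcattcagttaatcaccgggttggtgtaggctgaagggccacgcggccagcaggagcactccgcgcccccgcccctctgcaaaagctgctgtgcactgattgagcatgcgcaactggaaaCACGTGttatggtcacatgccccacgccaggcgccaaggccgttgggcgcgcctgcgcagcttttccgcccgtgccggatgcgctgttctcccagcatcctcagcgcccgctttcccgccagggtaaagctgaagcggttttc
Hormad1 holds the motif in 2 places, 57 and 20 bases before the start, and the other 3 genes hold it once.

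The X-linked germ-line genes held the most negative difference of all genes. Usp26, a deubiquitinase of the testis, was 9.51 in parental ESCs and 5.76 in homologous cells (−3.75), and the mRNA export factor Nxf3 was 9.76 and 6.09 (−3.67). Pnma5 (9.36 and 6.28), the transketolase-like gene Tktl1 (9.57 and 6.98) and the homeobox gene Rhox1 (10.91 and 8.66) were lower by 4-fold or more. All of these were also low on the other 3 arrays of repopulated cells, for example 5.70, 5.80 and 5.98 for Usp26. In all, 8 of 21 measured members were lower and 1 was higher by more than 2-fold, against 1.6% lower and 1.45% higher over all genes. Of all 739 measured X-linked genes, a closer background, 62 (8.39%) were lower and 14 (1.89%) were higher. The list was chosen with earlier results of these data known. The median was −0.43 over the list and 0.025 over the members above the median of all values (7.49). Usp26 and Nxf3 were above 7.49 in parental ESCs alone, so a filter on level over the arrays can drop the members that differed most. These medians therefore do not show whether the direction rests on dim members. Several members such as Rhox10, Rhox11 and Tsga8 were close to 0. The higher member was Rhox9 (9.28 and 10.59), and its neighbor Rhox6 was 9.35 and 10.19.

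X-linked genes in general were lower. Of 359 expressed X-linked genes (mean above 7.49), 288 (80.2%) were below 0, the median was −0.44, and 41 (11.4%) were lower by more than 2-fold while 12 were higher, against 1.97% lower and 2.2% higher over all expressed genes. In 5 successive parts of equal gene number along the chromosome the medians were −0.47, −0.48, −0.48, −0.44 and −0.28. The decrease therefore extended over the whole length of the chromosome. The other repopulated populations, which share the parental array, had X medians of −0.47 (heterologous), −0.49 and −0.48 (co-injection). Housekeeping genes on the X followed this level to different degrees. Hprt was 11.75 and 11.39, and of the X-linked partners of Y genes, Usp9x was 12.02 and 11.22, Kdm5c was 11.30 and 10.55, and Eif2s3x was 12.71 and 12.22, but Pgk1 was 12.72 and 12.87. Xist, the RNA that coats an inactive X, was 6.80 and 6.79, and Rlim, its X-linked activator, was 10.58 and 11.17. Slc38a5, a glutamine transporter on the X, fell from 10.16 to 6.98, the sterol isomerase Ebp from 10.48 to 8.78, and the ERK phosphatase Dusp9, also X-linked, from 12.37 to 11.01. The highest difference of all 19938 genes was on the X as well: Fndc3c1 was 7.14 in parental ESCs and 10.68 in homologous cells (3.54).

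Among 8 measured Y-linked genes, 2 were higher by more than 2-fold, against 1.45% higher over all genes. The demethylase homologue Uty was 5.30 in parental ESCs and 8.75 in homologous cells (3.45), and the translation factor subunit Eif2s3y was 5.34 and 7.88 (2.54). Both were also higher on the other 3 arrays, with Uty between 7.78 and 8.27 and Eif2s3y between 7.82 and 8.54. The remaining 6 Y genes stayed within 2-fold. Zfy1 was 4.69 and 5.67 (0.97), Uba1y 7.12 and 7.87 (0.75) and Zfy2 3.94 and 4.13, whereas Kdm5d was 6.24 and 6.29, Usp9y 5.11 and 5.06, and the testis determinant Sry 8.03 and 8.05. The list median was 0.47. Whether the parental RNA came from cells without a Y chromosome, or with a different set of sex chromosomes from the repopulated cells, was not tested, nor was the part of such a difference in the X-linked results.

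A chromosome-wide increase was found for chromosome 8. Of 653 expressed genes on it, 531 (81.3%) were above 0, with a median of 0.26, and 33 (5.05%) were higher by more than 2-fold while 3 were lower, against 2.2% higher and 1.97% lower over all expressed genes. The medians of its 5 parts were 0.27, 0.32, 0.24, 0.25 and 0.20. Co-injection medians for chromosome 8 were 0.22 and 0.25 and the heterologous median was 0.04. Members over 2-fold included the ERK phosphatase Dusp4 (8.24 and 10.00), the ubiquitin ligase Rnf122 (8.19 and 10.25), the sterol oxidase Msmo1 (10.15 and 11.28), the antiviral tether Bst2 (8.40 and 9.63) and Mmp2. On chromosome 6 the last 2 of 5 parts, from Foxp1 to Lpcat3 and from Emg1 to Resf1, had medians of 0.19 and 0.16, and Dppa3, Eno2 and Bhlhe40, all described here, lie on that chromosome. The other 17 autosomes had medians between −0.03 and 0.01. The last part of chromosome 12 had a median of 0.13 over 84 genes, and of 0.0045 over 63 genes once the Dlk1–Dio3 genes described next were left out. The study counted chromosomes and reported more aneuploidy in repopulated ESC-like cells than in parental ESCs. Those counts were not analysed here, and the part of chromosome number in the medians was not tested. With the X, the Y and chromosome 8 set aside, 492 of 18235 genes (2.7%) differed by more than 2-fold, of which 238 (1.31%) were higher and 254 (1.39%) lower.

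**Figure D3:**
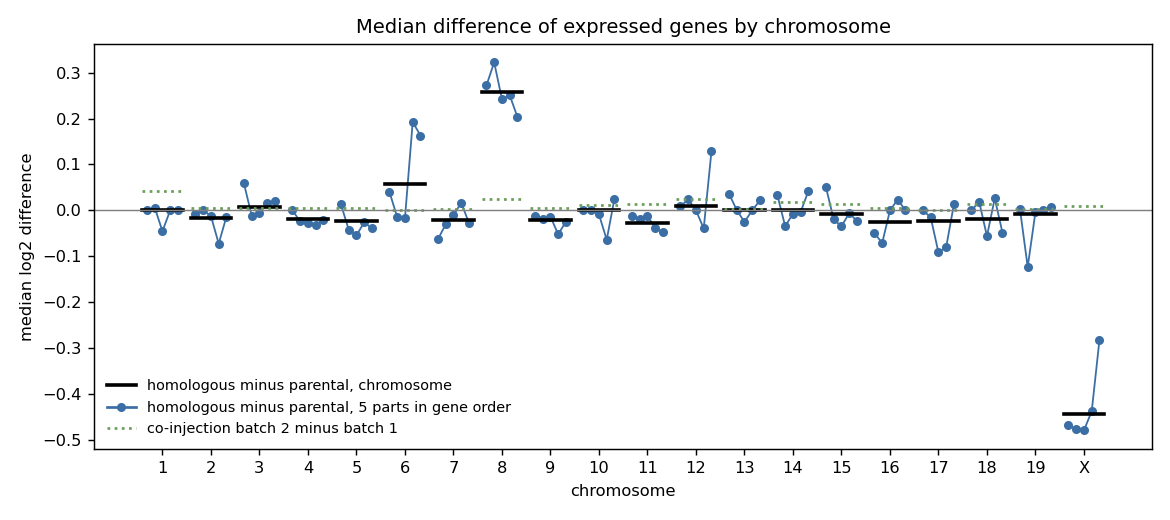
Median difference between homologous ESC-like cells and parental ESCs (log2, vertical axis) for expressed genes of each chromosome. Black bars are chromosome medians, blue dots 5 successive parts of equal gene number, and green dotted marks the difference between the co-injection arrays. Chromosome 8 lies at 0.26 and the X at −0.44, with all of their parts on the same side of 0.

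The Dlk1–Dio3 region of chromosome 12, an imprinted cluster, was examined after its values had been seen. On the maternal copy it produces the long RNA Meg3, the RNA Rian with its small nucleolar RNAs, and a large group of microRNAs, and on the paternal copy the proteins Dlk1, Rtl1 and Dio3. Expression of the maternal RNAs in mouse pluripotent cells is known to depend on the methylation imprint of the region. Of 40 microRNA genes measured in the cluster, 37 were above 0, with a median of 0.71, and 11 were higher by more than 2-fold and none lower, against 13 (4.39%) higher of all 296 microRNA genes and 2 (0.781%) of the 256 outside the cluster. The cluster's microRNA probe sets ran from 3.49 to 9.45 in parental ESCs and from 4.04 to 10.0 in homologous cells. Mir380 was 6.08 and 8.03 (1.95), Mir377 was 8.20 and 10.0 (1.81), Mir300 was 6.42 and 8.15 (1.73), Mir485 was 7.56 and 9.07 (1.51) and Mir382 was 7.98 and 9.30 (1.32). The long RNA Meg3 was 11.10 and 12.08 (0.97) and Rian was 6.39 and 7.73 (1.34). The proteins of the region did not share the increase, with differences of −0.09 for Dlk1, 0.15 for Rtl1 and −0.41 for Dio3.

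Values of the cluster varied among populations. The median of the 40 microRNA genes relative to the same parental array was 1.53 on the heterologous array, and 0.29 and 0.17 on the co-injection arrays. On the heterologous array the expressed genes of the last part of chromosome 12 had a median of 0.87. It was 0.77 without the Dlk1–Dio3 genes, so neighboring genes were higher there as well. Mir380 itself was 9.16 on the heterologous array and 7.48 and 6.47 on the co-injection arrays, a gap of 1.01 between populations of 1 condition. Mir377, at 10.7 on the heterologous array and 8.69 and 8.18 on the co-injection arrays, had a homologous value above both co-injection values. The probe sets may read the precursor or the host RNA, and the array does not separate these from the mature microRNA.

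**Figure D4:**
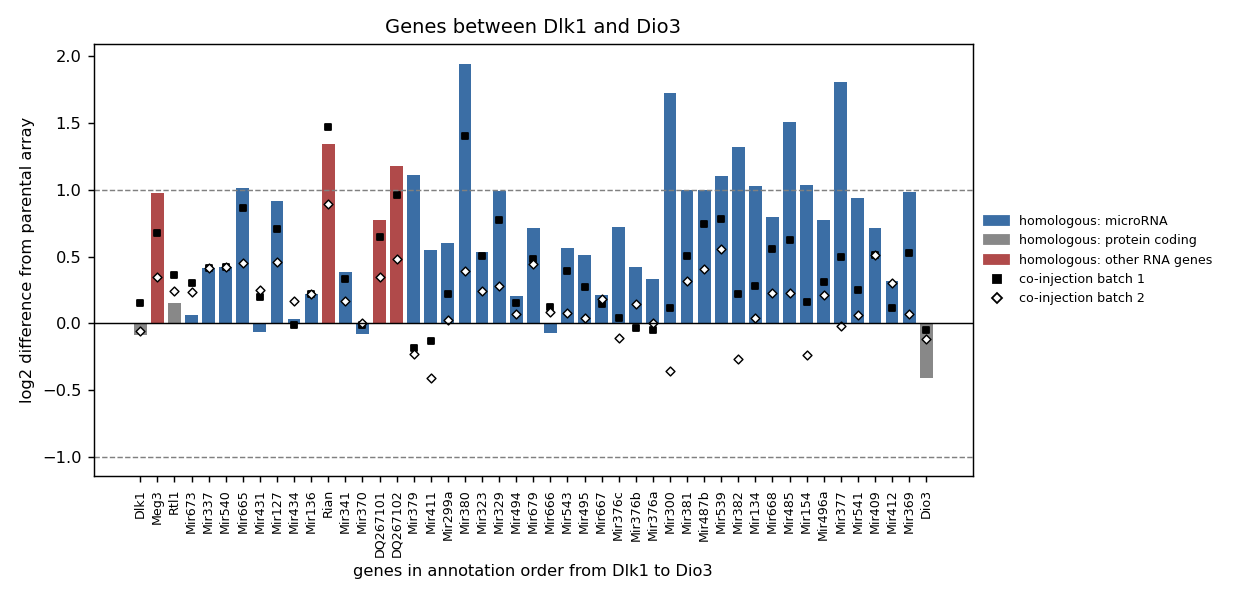
Difference from parental ESCs (log2, vertical axis) for the measured genes of the Dlk1–Dio3 region in annotation order, with bars for homologous ESC-like cells and squares and diamonds for co-injection batches 1 and 2. Bars of the maternal RNAs rise to 1.95 at Mir380, whereas those of Dlk1, Rtl1 and Dio3 lie between −0.41 and 0.15.

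Mature sequences from RefSeq (GRCm38.p6) are given for the 5 microRNA genes with the largest differences, since the seed (bases 2 to 8, in capitals) sets which messages a microRNA can pair with. All lie on the plus strand of chromosome 12, from chr12:109711806-109711827 for miR-380-5p to chr12:109740553-109740574 for miR-377-3p.
mmu-miR-380-5p: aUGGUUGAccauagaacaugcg
mmu-miR-380-3p: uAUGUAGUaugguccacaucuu
mmu-miR-300-5p: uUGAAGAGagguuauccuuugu
mmu-miR-300-3p: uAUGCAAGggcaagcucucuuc
mmu-miR-382-5p: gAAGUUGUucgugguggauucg
mmu-miR-382-3p: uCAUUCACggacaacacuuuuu
mmu-miR-485-3p: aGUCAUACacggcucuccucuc
mmu-miR-377-5p: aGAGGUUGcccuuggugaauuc
mmu-miR-377-3p: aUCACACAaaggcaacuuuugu
The 11 genes over 2-fold have 19 mature sequences in the table, and these carry 19 different seeds. The array gives a difference per gene, so it does not show which mature sequences or seeds changed.

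Of 31 imprinted genes measured elsewhere in the genome, 4 were higher and 1 was lower by more than 2-fold, with a median of 0.25, against 1.45% higher and 1.6% lower over all genes. The growth factor Igf2 was 9.13 in parental ESCs and 10.54 in homologous cells (1.40), Sgce was 8.24 and 9.32, the placental growth regulator Phlda2 was 11.88 and 12.95, and Nnat was 9.14 and 10.14. The zinc-finger gene Plagl1 fell from 10.65 to 9.07. Genes at similar values in both populations included Peg10 (13.18 and 13.15) and Ndn (10.03 and 9.84). For Igf2 the other repopulated arrays were also higher, at 11.88, 10.48 and 10.42. The IGF system of 18 genes had a median of 0.39 with Igf2 and the docking protein Irs1 over 2-fold. Irs1 was 7.24 and 8.44 on its brighter probe set, but the mean of its 2 probe sets differed by 0.60.

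Genes of glycolysis and of the hypoxia response were higher in the homologous cells. Of 39 measured, 30 were above 0, 8 were higher by more than 2-fold and none lower, with a median of 0.36, against 1.45% higher over all genes. The mTORC1 inhibitor Ddit4 was 8.87 in parental ESCs and 10.82 in homologous cells (1.95), the enolase Eno2 was 7.54 and 9.46 (1.92), and the transcriptional repressor Bhlhe40 was 8.74 and 10.61 (1.86). The oxygen sensor Egln3, a prolyl hydroxylase that marks HIF alpha subunits for degradation, was 10.41 and 12.12 (1.71). Pdk1, which holds pyruvate back from mitochondria, was 9.73 and 11.34 (1.62), the carbonic anhydrase Car12 was 6.92 and 8.47 (1.56), the aldolase Aldoc was 8.38 and 9.85 (1.47), and the mitophagy receptor Bnip3 was 10.43 and 11.84 (1.41). In each of these 8 genes the homologous array was the highest of the 5. For Egln3 the other repopulated populations were 11.14, 11.14 and 11.16, and for Bnip3 they were 10.11, 10.91 and 10.95.

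The strongly expressed glycolytic genes differed little. Ldha was 13.20 and 13.35, Pgam1 was 12.66 and 12.69 and the glucose transporter Slc2a1 was 13.13 and 13.15, whereas Tpi1 (12.01 and 12.77) and Pfkl (10.48 and 11.22) were higher by 0.76 and 0.74. The HIF subunit Hif1a was 11.53 and 11.42 and Epas1 (HIF-2 alpha) was 11.80 and 11.06, and the target Vegfa was 9.84 and 9.79. Of 40 respiratory chain genes none passed 2-fold in either direction, near the share of 3.05% over all genes, and their median was −0.08.

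**Figure D5:**
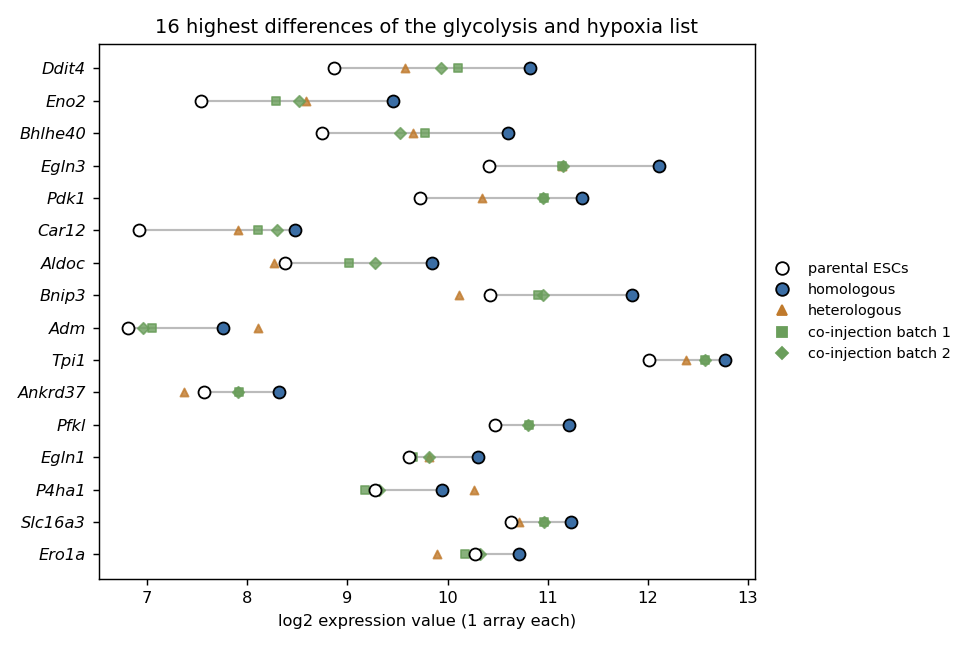
Expression values (log2, horizontal axis) on each of the 5 arrays for the 16 genes of the glycolysis and hypoxia list with the highest differences; symbols are as in the plot of germ-line genes. Blue circles (homologous) are the rightmost points from Ddit4 to Bnip3, at 10.82 for Ddit4 and 11.84 for Bnip3, while Adm and P4ha1 are highest on the heterologous array.

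The core of the HIF response element is ACGTG or GCGTG, and the start windows of 2 of these genes are shown with those letters in capitals. Counted per gene on both strands, and with the overlap that every CACGTG also holds ACGTG, they were present in 32 of 35 genes of the list (91.4%). Of all 15614 measured genes with a window, 8632 held them (55.3%). They were found in 5 of 7 genes higher by more than 2-fold (71.4%) and in 27 of 28 within 2-fold (96.4%), so the letters did not set apart the genes that differed. Egln3 lies at chr12:54203825-54204124 and Ddit4 at chr10:59951721-59952020, both on the minus strand of GRCm38.p6 and written 5′ to 3′ on that strand.
Egln3: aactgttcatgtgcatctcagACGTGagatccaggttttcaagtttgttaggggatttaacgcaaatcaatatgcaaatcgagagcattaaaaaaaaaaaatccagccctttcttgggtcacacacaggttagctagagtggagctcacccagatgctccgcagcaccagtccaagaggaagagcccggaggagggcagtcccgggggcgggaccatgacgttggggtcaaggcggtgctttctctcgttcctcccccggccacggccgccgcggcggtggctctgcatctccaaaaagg
Ddit4: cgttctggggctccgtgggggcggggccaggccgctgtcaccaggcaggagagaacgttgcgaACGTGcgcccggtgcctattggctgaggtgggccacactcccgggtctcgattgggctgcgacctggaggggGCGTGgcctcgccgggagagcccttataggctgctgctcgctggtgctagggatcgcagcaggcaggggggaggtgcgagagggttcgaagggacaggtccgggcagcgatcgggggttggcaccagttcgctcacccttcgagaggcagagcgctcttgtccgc

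Signaling genes differed at single members more than as groups. The counts below stand against 1.45% higher and 1.6% lower by more than 2-fold over all genes. In the FGF and ERK feedback list of 30 genes, with a median of −0.01, Dusp4 (1.76) and the receptor Fgfr2 (8.26 and 9.46) were higher, and the ligands Fgf18 (9.58 and 8.12) and Fgf17 (9.56 and 8.48) and the phosphatase Dusp9 were lower. Of the BMP and ID list of 26 genes, the BMP targets Id1 (10.19 and 8.51, −1.68) and Id2 (11.74 and 10.16, −1.58) were lower, with Id3 at 8.73 and 8.34 and the ligand Bmp4 at 11.41 and 10.52, and the antagonist Grem1 was higher (8.14 and 9.18). In each of Id1 and Id2 the homologous array was the lowest of the 5. The Nodal inhibitor Lefty1 was 9.98 and 11.13, the SMAD co-repressor Skil was 9.03 and 10.15, and the activin subunit Inhbb was 9.80 and 8.15, in a Nodal and activin list of 21 genes whose median was 0.02. Wnt genes, 53 in number, had a median of 0.01, with the receptor Fzd2 (8.10 and 9.16) and Sfrp2 higher, and the secreted antagonists Notum (9.26 and 7.86) and Sfrp5 (8.43 and 7.13) lower. The Notch ligand Jag2 (8.11 and 9.34) and the receptor Notch3 (8.64 and 9.72) were higher among 23 Notch genes, and the hedgehog effector Gli2 was lower (10.87 and 9.76). The PDGF ligands Pdgfc (10.78 and 9.38) and Pdgfa (−1.02) were lower, and their receptor Pdgfra was 7.30 and 7.70. Lrrc32, which tethers latent TGF-beta to the cell surface, was 7.40 and 9.07.

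Among guidance genes, the transmembrane semaphorin Sema6a was 7.60 in parental ESCs and 10.78 in homologous cells (3.18), and 10.58, 11.13 and 10.83 on the other arrays. Sema3e (7.27 and 9.06) and its receptor Plxnd1 (7.86 and 8.92) were both higher, whereas Sema7a was lower (9.02 and 7.90). The 31 semaphorin and plexin genes had a median of 0.17. The ephrin system added Efna5 (7.56 and 8.79) and its partner in the receptor family Epha7 (7.13 and 8.29).

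Lineage markers outside pluripotency were mostly within 2-fold. Among all genes, 1.45% were higher and 1.6% lower by more than 2-fold. Of 23 neuroectoderm genes 4 were higher and 1 was lower, a larger share than over all genes. The higher and lower counts were 1 and 2 of 22 endoderm genes, 1 and 1 of 22 mesoderm genes, and 1 and 1 of 21 trophectoderm genes. In the neuroectoderm list of 23 genes, with a median of −0.05, the radial glia lipid carrier Fabp7 was 6.99 and 9.32 (2.33), the progenitor filament Nes was 7.87 and 9.15 (1.28), and Sox11 was 7.78 and 8.94 (1.16). Fabp7 was 11.64 on the heterologous array and 7.92 and 8.05 on the co-injection arrays. Pax6 (7.42 and 8.15) and Sox1 (8.89 and 9.16) stayed within 2-fold, and the adhesion molecule Ncam1 fell from 10.71 to 9.52. Among endoderm genes Sox7, a factor of the primitive endoderm, fell from 9.95 to 7.73 (−2.23) and Lama1 from 9.46 to 8.32, while the endocytic adaptor Dab2 was 7.82 and 9.56 on its brighter probe set and differed by 0.88 over the mean of its probe sets. Gata3, a trophectoderm factor, fell from 9.33 to 7.47, and the cardiac factor Tbx20 from 8.92 to 7.37. Etv2, which specifies blood and endothelium, was 8.49 and 9.71. Afp was 6.62 in both populations and Kdr was 6.81 and 6.85. The 37 Hox genes had a median of 0.00, with only Hoxc12 (8.35 and 6.80) over 2-fold.

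Epithelial junction and keratin genes had a median of 0.36 over 39 members, or 0.24 over those off the X, the Y and chromosome 8. The vesicle protein Mal2 was 6.88 in parental ESCs and 9.40 in homologous cells (2.52), the membrane protease Prss8 was 8.48 and 9.90, the splicing regulator Esrp1 was 9.59 and 10.92, and the desmosome protein Pkp2 was 9.13 and 10.15. Esrp1 and Cldn6 were below the parental value on the heterologous array, at 9.17 and 10.35. The adhesion molecule Epcam was 10.55 and 10.63. The mesenchymal factor Snai2 was higher too, 7.88 and 9.19, with 7.22 and 7.01 on the co-injection arrays and 10.56 on the heterologous array. In the matrix, none of 41 collagen genes passed 2-fold, which is near the share of 3.05% over all genes. The proteoglycans Vcan (8.66 and 9.68) and Sdc4 (8.76 and 9.78) and the fibulin Fbln2 (9.63 and 10.66) were higher. So were the basement membrane protein Frem2 (9.02 and 10.16) and the protease inhibitor Timp2 (8.42 and 9.81). Egfl6 (9.80 and 6.72), the glypican Gpc4 (11.04 and 9.75) and Nid1 (11.69 and 10.57) were lower. For Fbln2, Timp2, Pdgfrb, Snai2 and Grem1 the homologous value lay between the heterologous array, which was higher, and the co-injection arrays, which were below the parental array.

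Genes of the immune response were mostly close to 0. The shares over all genes were 1.45% higher and 1.6% lower by more than 2-fold. The interferon list of 28 genes had a median of −0.02, with the RNA sensors Oas2 (8.58 and 7.09), Oas1a (8.54 and 7.36) and Ddx58 (RIG-I; 10.47 and 9.42) lower and Bst2 higher. For these 3 sensors all 4 arrays of repopulated cells were below the parental array. The class I light chain B2m was 9.84 and 11.15 (1.31) while the loading factor Tapbp was 10.30 and 9.47, and the 16 antigen presentation genes had a median of −0.01. No gene passed 2-fold among 25 p53 and apoptosis genes, 28 DNA repair genes and 23 genes of serine and one-carbon metabolism. Of 46 cell cycle genes only the CDK inhibitor Cdkn1b did (9.59 and 10.78). Actb was 13.55 in both populations and Ppia was 13.23 and 13.25.

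The largest remaining differences fell outside these groups. Crygd, a lens crystallin, fell from 11.52 to 7.88 (−3.63), and its levels on the other arrays were 10.01, 9.10 and 9.11. Elobl (10.58 and 7.51), the olfactory receptor gene Olfr153 (8.51 and 5.48), the citrate transporter Slc13a5 (9.42 and 6.58), the Ras-related Mras (10.98 and 8.56) and the lysosomal Laptm5 (11.81 and 9.55) were lower. Mras and Laptm5 were lowest on the homologous array, while Olfr153 was between 5.37 and 5.48 on every array of repopulated cells. Among the higher genes, Fam171b was higher by 2.46 from a parental level of 8.54, Greb1l was 6.43 and 8.81, the nucleosome-binding Hmgn5 was 7.43 and 9.77, the adhesion protein Lrrn1 was 6.65 and 8.92, and the Rac regulator Elmo1 was 8.36 and 10.49. The neuronal kinesin Kif1a (7.73 and 9.76), Prtg (8.30 and 10.27), the milk protein gene Csn3 (6.49 and 8.51) and the GABA receptor subunit Gabra3 (7.29 and 9.24) were also higher, and so was the iron exporter Slc40a1 (6.15 and 8.08). Hmgn5, Lrrn1 and Elmo1 were highest on the homologous array, and Slc40a1 was 6.52 on the heterologous array and 7.60 and 7.51 on the co-injection arrays.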

How the data were processed

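RNA of 5 cell populations was measured on Affymetrix GeneChip Mouse Gene 1.0 ST arrays. The authors extracted intensities with GCOS, applied robust multi-array average (RMA) with quantile normalization and deposited 35556 values per array on the log2 scale. Versions and the genome build were not given in the sources used here. No further normalization was applied. Groups came from the sample labels. Gene symbols came from the platform's annotation table (21789 with exactly 1 symbol, 1621 with several, 12146 with none; several and none were left out), and 21698 were matched to RefSeq (GRCm38.p6) for chromosome and order. A gene was counted when its difference was over 1 on the log2 scale, the 2-fold rule of the methods. With 1 array a side no test was made, and array number limits the precision. Members and the 59 gene lists were chosen with earlier results of these data known. Genes named were the 20 largest differences in each direction, list members over 2-fold (8 at most by size) with the 2 highest and 2 lowest of each list, and genes the study names; others were picked with their values in view. Other settings tried were fold thresholds of 1.5 and 3, the mean of a gene's probe sets, dim genes left out, cyclic loess (limma 3.58.1, R 4.3.3) and sex chromosomes left out. The counting was tested on simulated data. Python 3.11.15, numpy 2.4.6, pandas 2.3.3 and matplotlib 3.10.9 were used.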

Additional observations from a re-analysis of the deposited data

Results flagged for a closer look

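Over 2-fold differences from parental ESCs in opposite directions were found in homologous and heterologous ESC-like cells for 3 genes. Srgn, a secretory granule proteoglycan, differed by −1.65 in homologous cells (8.74 in parental ESCs and 7.09) and by 1.43 in heterologous cells, with 9.08 and 9.23 on the co-injection arrays. Ptgs2, the inducible cyclooxygenase, differed by −1.04 in homologous cells (10.36 and 9.32) and was 11.85 in heterologous cells and 8.56 and 8.51 after co-injection. Liph, a phospholipase, differed by 1.01 in homologous cells (8.16 and 9.17) and by −1.17 in heterologous cells. Each rests on 1 array a condition and on a shared parental array, and the difference between the conditions was not tested.

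Outside the named genes, 315 of 12146 probe sets with no symbol differed by more than 2-fold (2.59%), 188 higher and 127 lower in homologous cells. Of those 12146, 100 also differed by more than 2-fold between the co-injection arrays, 98 of them among the 6617 probe sets that precede the first probe set with a symbol, where 156 were higher and 68 lower in homologous cells. Among the rest, 32 were higher and 59 lower.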

How the results depend on the processing

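With 1 array on each side, no difference has a replicate error, and signal near background limits the dim genes; a median was counted as moved when it shifted by more than 0.081, the SD of 1 gene between the co-injection arrays. No paired analysis was possible because parental and homologous cells had 1 array each and share no replicate number. Cyclic loess kept the direction and side of the threshold of 297 of 298 named genes, the exception being Itga11 (1.00), and moved none of the 82 counts and medians. At a threshold of 1.5-fold 983 genes were higher and 913 lower, and at 3-fold 54 and 104. Over members above the median of all values, list medians became 0.76 (primed epiblast), −0.18 (2-cell stage), 0.092 (FGF), 0.66 (IGF), 0.17 (receptor tyrosine kinases), 0.27 (semaphorin), 0.33 (ephrin), 0.071 (neuroectoderm), −0.31 (trophectoderm), 0.46 (contractile), −0.67 (macrophage), 0.37 (matrix proteases), 0.20 (S100 and annexin), −0.62 (meiosis and piRNA), 0.75 (Y-linked), −0.61 (X inactivation), 0.11 (Hox) and −0.21 (chemokine), and that of X-linked germ-line genes turned from −0.43 to 0.025. Fewer genes are left under this filter, and it can drop members that were high in parental ESCs alone. With the mean of a gene's probe sets, medians were −0.24 (core pluripotency), 0.51 (primed epiblast) and 0.18 (Y-linked), and Cacna2d1, Dab2 and Irs1 no longer passed 2-fold. Without X-linked and Y-linked members, medians were 0.092 (FGF), −0.23 (meiosis and piRNA) and 0.38 (cholesterol), and, chosen after seeing the data, without chromosome 8 members too, −0.37 (meiosis and piRNA), 0.24 (epithelial) and −0.19 (X inactivation). Over all genes, medians were 0.12 for chromosome 8, −0.15 for the X and 0.58 for the Y. The cause was not tested.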

Other observations

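Further genes that are transcribed mainly in germ cells, picked after their values were seen, were lower in homologous ESC-like cells. Rec114, a partner in meiotic DNA break formation, was 8.56 in parental ESCs and 6.72 in homologous cells, M1ap was 10.23 and 8.62, Tex19.1, which restrains retrotransposons, was 9.03 and 7.40, and Morc1 was 10.29 and 9.16. The oocyte genes Zp3 (9.74 and 8.37), Khdc3 (9.09 and 7.81) and Nlrp4f (−1.81, with 6.18 in homologous cells) were lower as well.

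Other genes known to rise in low oxygen, picked in the same way, were higher. Stc1 was 7.07 and 8.80, Fam162a was 8.75 and 10.32, and Hif3a was 7.48 and 8.49. Higher values outside the lists were also found for the neural factor Neurod1 (7.09 and 8.72), the hyaluronan synthase Has2 (7.25 and 9.09), the stem cell surface protein Prom1 (6.60 and 8.49) and the B-cell factor Ebf1 (8.50 and 10.43).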
